A study of Mus musculus with 1536 samples.

Results

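Among lymphatic endothelial cells (LECs) of the adult mouse nasopharynx, 16.4% of the cells (95% exact binomial interval 13.95 to 19.1) had high *Igfbp5* together with low *Lyve1* and low *Stab2*, and are called *Igfbp5*-high *Lyve1*-low cells here. They were selected on measured values, namely *Igfbp5* above 2 and both *Lyve1* and *Stab2* at or below 1, where each value is the natural log of 1 plus reads per 10000 reads of the cell. *Igfbp5* encodes an insulin-like growth factor binding protein, and *Lyve1* and *Stab2* encode receptors for hyaluronan that are typical of initial lymphatics. All cells came from the pooled nasopharyngeal mucosa of 30 C57BL/6 mice of both sexes aged 10 to 12 weeks, were sorted 1 per well by the endothelial protein CD31 and the lymphatic protein podoplanin (PDPN), and were sequenced by Smart-seq3, a method that reads transcripts over their whole length. The labels and column names give neither the mouse nor the plate of a cell, so the adult cells are 1 sample, no test across cells was made, and each difference describes these cells only.

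Lymphatic capillaries take up fluid through loose, button-like junctions, and their endothelium is rich in LYVE1, CCL21 and reelin. Collecting lymphatics carry the lymph onward, have tighter, zipper-like junctions and valves, and lose LYVE1. Precollecting lymphatics have valves and a mixture of both kinds of junction. The study annotated precollecting cells by *Foxp2* together with *Lyve1* and named no collecting cluster among its LECs. The endothelium of these vessels releases nitric oxide through the synthase encoded by *Nos3*. Valve cells carry junction proteins such as connexin 37, encoded by *Gja4*, and claudin 11, encoded by *Cldn11*.

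The depth was 7433 to 3524358 reads per cell. Its median was 379180 reads in the *Igfbp5*-high *Lyve1*-low cells and 343023 in all other cells. The median number of genes found was 4427 against 4124, and the median share of mitochondrial reads was 1.72% against 1.79%. Of the *Igfbp5*-high *Lyve1*-low cells, 22 had reads of *Xist* alone, 86 had reads of Y chromosome genes alone, 7 had both and 23 had neither, which accounts for every selected cell and shows that they came from mice of both sexes. Both kinds of reads were present in 45 (6.39%) of the other cells, and no doublet caller was run.

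The 3 genes of the rule gave the following values, which are no finding. *Igfbp5* had a mean of 3.21 ± 0.720 (SD over the selected cells) with a range of 2.04 to 4.96 in the selected cells, and *Lyve1* was at 0 in 31 and *Stab2* in 85 of them. Near the limits, 25 selected cells had *Igfbp5* between 2 and 2.5, while 27 cells with the same low *Lyve1* and *Stab2* fell just outside, between 1.5 and 2. For *Lyve1*, 18 selected cells lay between 0.5 and 1 and 15 *Igfbp5*-high cells between 1 and 1.5. The plot of *Igfbp5* against *Lyve1* shows a continuous spread along both limits, with no gap at either.

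**Figure D1:**
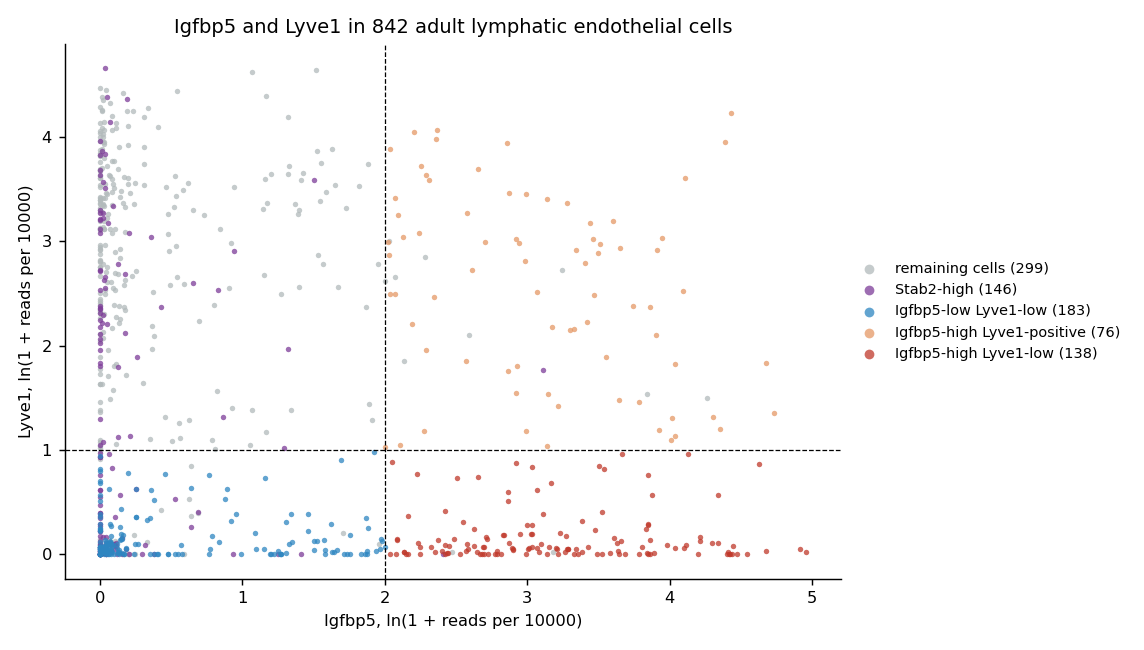
*Igfbp5* (horizontal axis) against *Lyve1* (vertical axis), both as ln(1 + reads per 10000), with 1 point per cell and dashed lines at the limits of 2 and 1. Red points are the *Igfbp5*-high *Lyve1*-low cells, 16.4% of all, and the *Igfbp5*-high *Lyve1*-positive (9.03%), *Igfbp5*-low *Lyve1*-low (21.7%), *Stab2*-high (17.3%) and remaining cells are coloured as in the legend with their numbers; cells lie close to the dashed lines on either side.

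The name collecting-like goes with 6 markers that the rule did not use, and all 6 were higher in the selected cells. These markers were chosen with earlier results of these data known, so they describe the cells and are no check of the name. Levels were compared as the log2 ratio of group means of reads per 10000 plus a pseudocount of 1. A gene was called higher or lower if the log2 ratio was 0.3 or more in size and 30% or more of the higher group's cells had at least 1 read of it, which is what found means here. Over 5750 genes that reached this share in either group, 3.50% were called higher and 4.49% lower against all other cells, with a median log2 ratio of -0.02. The rule fixed the same cells, and genes that go with *Igfbp5* or *Lyve1* follow from it, so these counts are a description.

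*Clca3a1*, a member of the calcium-activated chloride channel regulator family at 144729677 to 144760977 on chromosome 3 (build GRCm38), was found in 95.7% (90.8 to 98.4) of the selected cells and was above 1 in 92.8%, against 57.2% of all other cells. Its values reached 3.82 around a median of 2.51, and the mean level was 12.4 against 5.59 reads per 10000 (log2 ratio 1.02). *Parm1*, which encodes a mucin-like membrane protein (chromosome 5, 91517615 to 91626894), had a log2 ratio of 1.10, with a mean level of 2.55 against 0.662 reads per 10000. It was above 1 in 46.4% of the selected cells and in 12.8% of the others, so that most selected cells had little of it. *Tspan7*, a tetraspanin gene (chromosome X, 10485158 to 10596605), was above 1 in 53.6% against 17.9% of cells (log2 ratio 1.02). *Adamts1*, a secreted metalloprotease that cleaves proteoglycans (chromosome 16, 85793827 to 85803113), was above 1 in 65.9% against 36.6% (log2 ratio 0.97). *Foxp2*, a forkhead transcription factor (chromosome 6, 14901349 to 15441977), was the least different of the 6, at 1.69 against 0.781 reads per 10000 (log2 ratio 0.59).

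*Apoe*, the apolipoprotein E gene (chromosome 7, 19696109 to 19699188), split the selected cells. It was above 1 in 54.3% of them, where the highest value was 4.75 and the median 1.37, but its lower quartile was 0.02. Its mean was 11.9 against 6.12 reads per 10000 (log2 ratio 0.85). A single cell with 1254.1 reads per 10000 gave 29.1% of the *Apoe* sum of all other cells, and the log2 ratio was 1.18 with the highest cell left out of each group. Among cells at or below the median of total reads the log2 ratio of *Apoe* was 0.23, under the limit for a call, and it was 0.27 with *Igfbp5* above 3 as the limit of the rule.

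Counted per cell, at least 4 of the 6 markers were found in 92.03% of the selected cells (86.2 to 95.95) and in 52.98% of the others, a share that was 80.9% (74.4 to 86.3) in the *Igfbp5*-low *Lyve1*-low cells, which had equally low *Lyve1* and *Stab2* with *Igfbp5* at or below 2. All 6 were found in 59 selected cells, and 1 selected cell had none. Thinned to 20000 reads per cell, which left out 51 cells, 4 of them selected, the shares with at least 4 markers were 76.9% and 27.1%. By the stricter limit of a value above 1, 49.3% of the selected cells (40.7 to 57.9) and 13.2% of the others had at least 4 markers, with 33.9% (27.1 to 41.2) in the *Igfbp5*-low *Lyve1*-low cells.

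**Figure D2:**
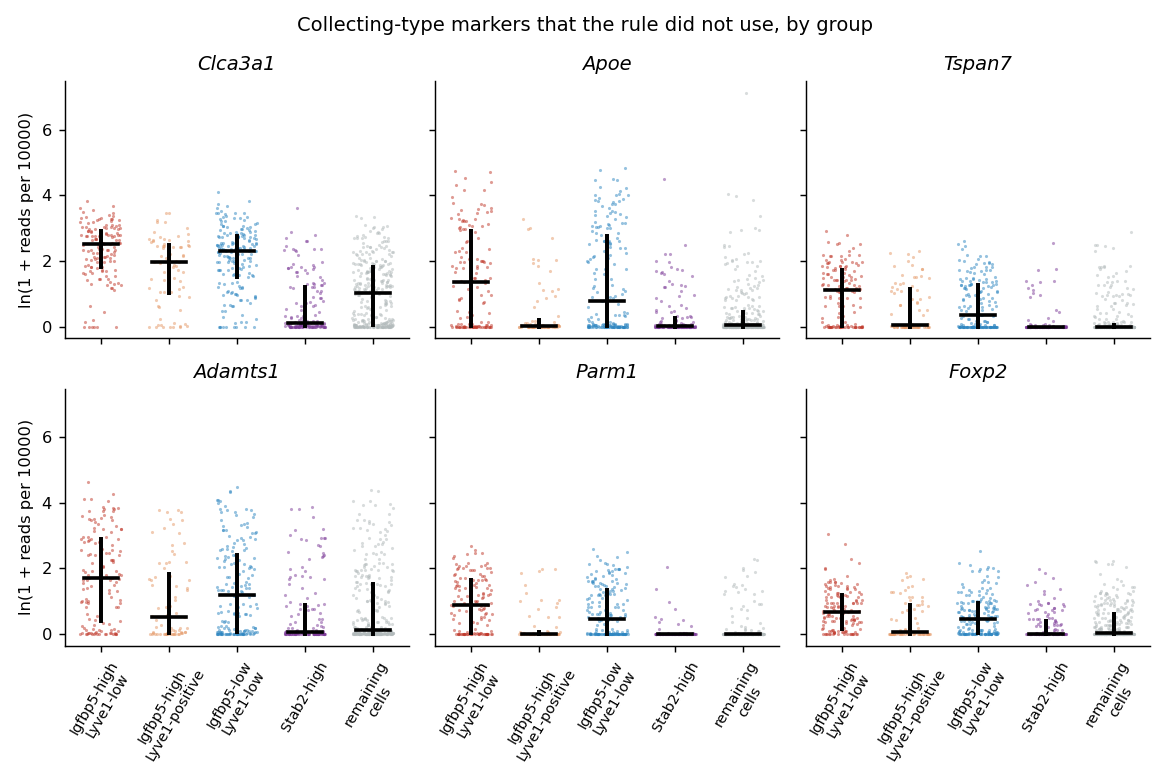
Levels of the 6 collecting-type markers outside the rule, as ln(1 + reads per 10000), with 1 point per cell in the *Igfbp5*-high *Lyve1*-low, *Igfbp5*-high *Lyve1*-positive, *Igfbp5*-low *Lyve1*-low, *Stab2*-high and remaining cells; horizontal bars are medians and vertical bars run between the quartiles. Median *Clca3a1* was 2.51 in the *Igfbp5*-high *Lyve1*-low cells, and the medians of all 6 markers were higher there than in the other 4 groups.

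Genes of general lymphatic identity remained present. Of 7 such genes, each was found in 92.03% to 100% of the selected cells, none was called higher and 3 were called lower. *Prox1*, the lymphatic master transcription factor, was above 1 in 77.5% of the selected cells and 84.2% of the others, and *Pdpn*, the podoplanin gene used for the sort, in 69.6% and 73.7%. *Flt4*, which encodes the receptor VEGFR3 (log2 ratio -0.45), *Nr2f2*, a venous and lymphatic transcription factor (-0.33), and *Mmrn1*, which encodes multimerin 1 (-0.60), were lower. *Tek*, which encodes the angiopoietin receptor TIE2, was higher at 5.72 against 2.56 reads per 10000 (log2 ratio 0.92). In the cells with *Xist* and no Y gene, 22 of them selected, the ratio of *Tek* was 0.15, under the limit for a call. In a wider list of lymphatic and endothelial identity, 7 of 15 genes were lower and 2 higher (median log2 ratio -0.26). Against the *Igfbp5*-low *Lyve1*-low cells, with equally low *Lyve1* and *Stab2*, 1 of these 15 was lower and 2 were higher (median 0.005). The lower levels were thus mostly shared by those cells.

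In the list of collecting and precollecting markers, 11 of 12 tested genes were higher and 1 was lower (median log2 ratio 0.72). The list holds the 6 markers and was chosen with earlier results of these data known, so this count is a description. Against the *Igfbp5*-low *Lyve1*-low cells, 4 of 12 were higher and 1 was lower (median 0.26). Besides the 6 markers, *Nos3* was above 1 in 35.5% against 13.4% of cells (log2 ratio 0.67), *Cav1*, the caveolin 1 gene, had a mean level of 14.1 against 7.94 reads per 10000 (0.76), and *Gja4* had 3.10 against 1.79 (0.56). The exception was *Angpt2*, which encodes the TIE2 ligand angiopoietin 2 and was above 1 in 26.8% of the selected cells but in 61.9% of the others. Its mean level was 1.76 against 8.50 reads per 10000 (log2 ratio -1.78), whereas the receptor gene *Tek* was higher, except in the cells with *Xist* and no Y gene.

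Most capillary genes were low. Of 12 tested genes in the capillary list, 10 were lower and 1 was higher (median log2 ratio -0.79). *Aqp1*, a water channel, had the lowest ratio of all tested genes at -3.80, with 1.60 against 35.3 reads per 10000. It was above 1 in 7.97% of the selected cells and 57.95% of the others. *Gm525* was above 1 in 0.725% against 38.1% (log2 ratio -2.39), and *Reln*, which encodes reelin, had a mean level of 4.20 against 12.4 reads per 10000 (-1.37). *Ccl21a*, a chemokine that guides dendritic cells into lymphatics, was found in 63.04% against 82.4% of cells (log2 ratio -0.78). *Ptn* was the exception, and its ratio of 1.23 was the highest of all genes tested. The study annotated its capillary cells without *Ptx3* by *Fndc1* together with *Ptn*. *Fndc1* was at -0.23, under the limit for a call, so neither of these capillary markers was called lower.

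*Ptn* encodes pleiotrophin, a heparin-binding growth factor. It was not a general feature of the selected cells, since it was above 1 in 31.9% of them, where its median was 0.04 and its highest value 3.38. In all other cells it was above 1 in 5.82%, and the means were 2.25 against 0.386 reads per 10000. *Bcam*, a laminin-binding adhesion molecule, followed with 3.05 against 0.749 (log2 ratio 1.21) and was found in 79.7% of the selected cells. *Nts*, the precursor gene of the peptide neurotensin, had 19.3 against 7.84 (1.20), and *Plat*, which encodes tissue plasminogen activator, had 7.23 against 2.92 (1.07). *Ackr3*, a scavenging receptor for CXCL12 and adrenomedullin, was above 1 in 59.4% against 31.2% of cells (1.07), but its ratio was 0.02 in the cells with *Xist* and no Y gene. *Gadd45g*, a stress-inducible gene (1.06), *Serpinb6b*, an intracellular protease inhibitor (1.03), *Postn*, which encodes the matrix protein periostin (1.03), *Nsg1*, an endosomal protein gene (0.96), *Slc29a4*, a monoamine transporter (0.95), and *Nupr1*, a stress-inducible nuclear protein gene (0.93), completed the highest ratios. *Nsg1* was found in 97.8% of the selected cells, whereas *Slc29a4* was found in 34.8%.

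After *Aqp1* and *Gm525*, the lowest ratios were those of *Thbs1* and *Angpt2*. *Thbs1*, which encodes thrombospondin 1, had 0.526 against 4.69 reads per 10000 (log2 ratio -1.90), and *Gpihbp1*, which anchors lipoprotein lipase on capillary endothelium, had 1.26 against 5.43 (-1.50). *Igfbp4*, another binding protein of insulin-like growth factors, was lower (-1.34) where *Igfbp5* was high by selection. *Ablim3*, an actin-binding protein gene (-1.37), *Akap12*, a kinase anchor gene (-1.22), *Tnc*, the tenascin C gene (-1.21), *Sema7a*, a semaphorin gene (-1.19), *Mgll*, a lipase gene (-1.17), *Scn3a*, a sodium channel gene (-1.16), and *Ctsd*, a lysosomal protease gene (-1.14), were also lower. *Ctsd* was still found in 96.4% of the selected cells, at 3.19 against 8.26 reads per 10000.

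**Figure D3:**
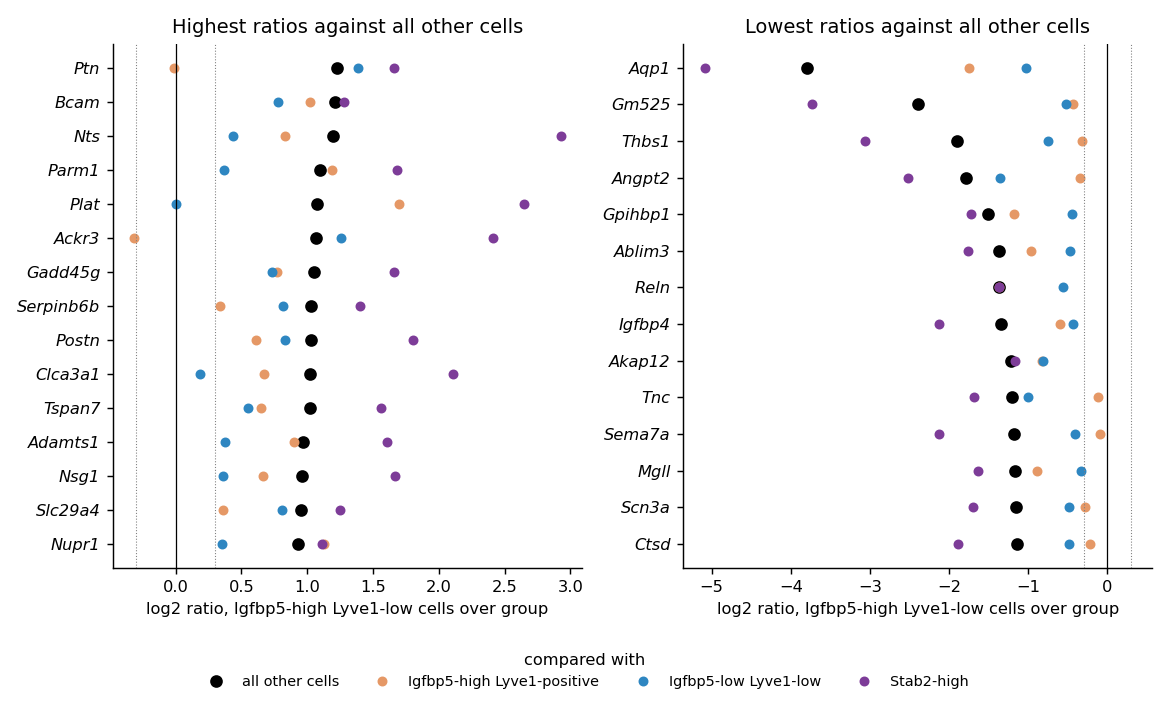
Log2 ratios of mean reads per 10000 plus 1 in the *Igfbp5*-high *Lyve1*-low cells over all other cells (black), *Igfbp5*-high *Lyve1*-positive cells (orange), *Igfbp5*-low *Lyve1*-low cells (blue) and *Stab2*-high cells (purple), for genes with the highest (left) and lowest (right) ratios against all other cells; dotted lines mark 0.3 and -0.3. *Ptn* lies at -0.01 against the *Igfbp5*-high *Lyve1*-positive cells and *Plat* at 0.00 against the *Igfbp5*-low *Lyve1*-low cells, while *Aqp1* is below -1 in all 4 comparisons.

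Each of the other lists was compared with all other cells and read beside the 3.50% higher and 4.49% lower over all tested genes. In the flow response list 5 of 16 genes were higher and 2 lower (median log2 ratio 0.05). *Thbd*, which encodes the anticoagulant receptor thrombomodulin, was higher at 7.92 against 4.23 reads per 10000 (0.77; 0.17 in cells with *Xist* and no Y gene), whereas the flow-induced transcription factor genes *Klf2* (-0.03) and *Klf4* (0.04) were near 0. The complement and coagulation list had 8 of 15 genes higher and 2 lower (median 0.31). *Clu*, the clusterin gene, had 5.55 against 2.53 reads per 10000 (0.89), while *F8*, the coagulation factor VIII gene, was lower (-0.92).

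Of 21 tested junction genes, 5 were higher and 3 lower (median log2 ratio 0.03). *Lsr*, a protein gene of tricellular junctions, was above 1 in 23.2% of the selected cells and 3.98% of the others (0.68), and *Cdh13*, which encodes T-cadherin (0.62), and *Esam*, an adhesion molecule gene of endothelial tight junctions (0.52), were higher too. *Cdh5*, the VE-cadherin gene, was above 1 in 86.2% against 87.1% of cells (-0.26). Among matrix and basement membrane genes, 10 of 28 were lower and 1 was higher (median -0.16). *Fbln2*, a fibulin gene, had 1.82 against 4.61 reads per 10000 (-0.99), *Sparc*, a collagen-binding protein gene, 3.61 against 7.42 (-0.87), and *Col4a1*, a chain of type IV collagen, 2.47 against 4.48 (-0.66). Against the *Igfbp5*-low *Lyve1*-low cells, 5 of 28 matrix and basement membrane genes were lower and 2 higher (median -0.04).

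Receptors and enzymes of vasoactive signals were higher in 3 of 11 cases and lower in none (median log2 ratio 0.12). These were *Nos3*, *Ednrb*, the endothelin B receptor gene, with 3.85 against 2.22 reads per 10000 (0.59), and *Htr2b*, a serotonin receptor gene, which was above 1 in 25.4% against 9.80% of cells (0.83). In the list of ion channels and transporters, 4 of 20 were higher and 6 lower (median -0.17), and *Kcnj8*, a subunit of ATP-sensitive potassium channels, was lower (-1.10). Against the *Igfbp5*-low *Lyve1*-low cells, 2 of 17 genes of this list were higher and 1 lower (median 0.01). The axis of insulin-like growth factors, outside *Igfbp5* itself, had 6 tested genes. *Igf1* was higher (0.41, found in 38.4% against 16.1%), *Igfbp4* and *Igfbp7* (-0.91) were lower, and the receptor gene *Igf1r* (-0.28) was under the limit.

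In the Notch list 3 of 12 genes were lower and none was higher, with *Notch2* at -0.39. In the BMP and TGF-beta list 3 of 25 were higher and 5 lower (median log2 ratio -0.12). *Fstl1*, a secreted follistatin-like gene, was higher with 6.84 against 3.39 reads per 10000 (0.84), and *Eng*, which encodes the co-receptor endoglin, was lower with 7.46 against 12.2 (-0.64). Guidance genes were lower in 5 of 17 cases and higher in 1, led by *Sema7a*, *Unc5b* (-1.03) and *Robo4* (-0.96), both guidance receptors of endothelium. Among transcription factors only *Foxp2* and *Gata2* (0.40), a factor needed for valves, were higher of 32 tested, and 3 were lower. Against the *Igfbp5*-low *Lyve1*-low cells no transcription factor was higher and 1 of 32 was lower. In that comparison 2 of 15 flow response genes were higher and 1 lower, and 1 of 21 junction genes was higher and 2 lower. Of 24 BMP and TGF-beta genes, 2 were higher there and 7 lower. Of 15 complement and coagulation genes, 4 were higher there and 2 lower, and of 11 vasoactive genes 2 and 1. No Notch or guidance gene was higher there, and 1 of 12 and 5 of 17 were lower. Over all genes tested in that comparison, 2.80% of 5793 were higher and 2.83% lower. Against all other cells, the medians of MHC class I genes, interferon-stimulated genes and integrins were 0.05, -0.05 and 0.03. In each of these lists 1 gene was higher and 1 lower, of 15, 10 and 9 tested.

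**Figure D4:**
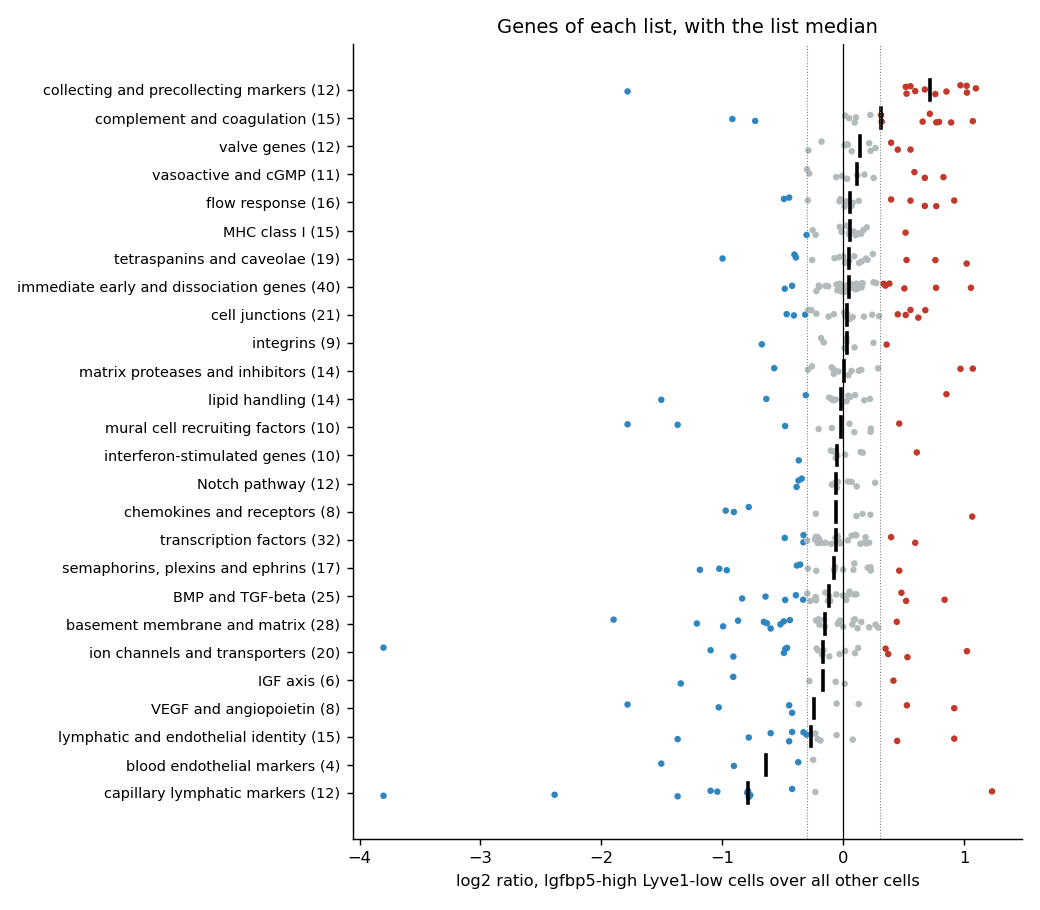
Log2 ratios (*Igfbp5*-high *Lyve1*-low cells over all other cells, mean reads per 10000 plus 1) of the tested genes of each list, 1 point per gene, with list medians as black bars and the number of tested genes in brackets; red and blue mark ratios past the dotted lines at 0.3 and -0.3. Collecting and precollecting markers have the highest median (0.72) and capillary lymphatic markers the lowest (-0.79), and all lists were chosen with earlier results of these data known.

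Most immediate early and dissociation genes were under the limit, and some were higher in the selected cells. Of 40 tested, 7 were higher and 2 lower (median log2 ratio 0.05), among them *Gadd45g*, *Ier3* (0.77) and *Atf3* (0.50). Their summed level per cell had a median of 438.4 reads per 10000 (range 32.1 to 1013.3) in the selected cells and 362.6 (9.42 to 1531.3) in the others. The upper 25% of all cells by this sum held 26.1% of the selected cells and 24.9% of the others. It held 33.3% of the *Igfbp5*-low *Lyve1*-low cells. Without the cells in the upper 25% of this sum, which took 36 of the selected cells, 3.77% of genes were higher and 4.76% lower, and 88.1% of the genes first called higher and 87.2% of those called lower were still called. The log2 ratio of *Nts* was then 0.57, and the part of these genes in the other differences was not tested.

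Markers of other cell types were scarce in the selected cells. Of fibroblast, mural, epithelial, immune, Schwann and red blood cell markers none was frequent enough to be tested, and the median summed level of each list was 0. The highest summed level in any selected cell was 1.71 reads per 10000 for 6 fibroblast genes, 1.57 for 8 mural genes, 8.28 for 3 epithelial genes, 12.6 for 8 immune genes and 2.999 for 4 Schwann genes. The mural markers *Myh11*, *Pdgfrb*, *Cspg4*, *Notch3* and *Des*, the immune marker *Ptprc* and all 5 red blood cell genes were at 0 in all selected cells. Of 10 blood endothelial markers, 4 were tested and 3 of them lower, with a summed median of 2.86 (range 0 to 28.02) against 6.93 (0 to 67.8), and *Esm1* and *Car4* were at 0 in all selected cells.

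To show which differences went with low *Lyve1*, the selected cells were set against 76 cells that were also *Igfbp5*-high with *Stab2* at or below 1 but had *Lyve1* above 1. The same selected cells enter this and the following comparisons, which are therefore not independent. Of 5791 genes, 4.08% were higher and 5.97% lower in the selected cells, and all 6 markers were higher. *Apoe* had the highest ratio (2.24, with 11.9 against 1.71 reads per 10000), followed by *Plat* (1.70), *Clu* (1.49), *Gdf15*, a stress-induced cytokine gene (1.33), and *Parm1* (1.19). The lowest were *Tppp3*, a tubulin polymerization gene (-1.94), *Aqp1* (-1.75), *Fndc1*, a fibronectin domain gene (-1.58), *Tspan18*, a tetraspanin gene (-1.47), and *Cyp4b1*, a cytochrome P450 gene (-1.47). Of 40 immediate early and dissociation genes, 22 were higher here (median log2 ratio 0.35), and the summed level of this list had a median of 438.4 against 271.3 reads per 10000. Median total reads were 379180 against 265578, and the part of either difference was not tested.

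To show which differences went with high *Igfbp5*, the selected cells were set against the *Igfbp5*-low *Lyve1*-low cells, 21.7% of all cells, with equally low *Lyve1* and *Stab2* but *Igfbp5* at or below 2. Fewer genes were called, with 2.80% of 5793 genes higher and 2.83% lower. Of the 6 markers, *Tspan7* (log2 ratio 0.55), *Adamts1* (0.38) and *Parm1* (0.37) were higher, whereas *Foxp2* (0.29), *Clca3a1* (0.18) and *Apoe* (-0.05) were under the limit. *Clca3a1* was above 1 in 82.5% and *Apoe* in 46.99% of the *Igfbp5*-low cells, so neither marker set the groups apart. Of the collecting and precollecting list 4 of 12 genes were higher and 1 lower (median log2 ratio 0.26), and of 8 tested capillary genes 4 were lower and 2 higher (median -0.34). *Ptn* (1.38), *Ackr3* (1.26), *Tppp3* (1.07), *Sdc1*, the syndecan 1 gene (1.005), and *Htr2b* (0.98) had the highest ratios. Against the *Igfbp5*-high *Lyve1*-positive cells the same genes had ratios of -0.01, -0.31, -1.94, -0.11 and -0.31, so each was at a similar or higher level in the other *Igfbp5*-high cells. *Angpt2* (-1.35), *Aqp1* (-1.03), *Odc1*, the ornithine decarboxylase gene (-1.02), *Tnc* (-1.01) and *Tgfbi*, a matrix protein gene (-0.91), had the lowest ratios.

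The comparison with the *Stab2*-high cells (*Stab2* above 2), 17.3% of all cells, called the most genes of the 4 comparisons, with 7.98% of 5867 genes higher and 12.03% lower. *Nts* (log2 ratio 2.93), *Plat* (2.64), *Apoe* (2.45), *Ackr3* (2.41) and *Vim*, the vimentin gene (2.22), had the highest ratios. *Aqp1* had 1.60 against 87.6 reads per 10000 (-5.09), and *Gm525* (-3.74), *Thbs1* (-3.06), *Angpt2* (-2.52) and *Sema7a* (-2.13) followed. Of the collecting and precollecting list 11 of 12 genes were higher, and of the capillary list 10 of 12 were lower, with medians of 1.45 and -1.22 against -0.04 over all tested genes. Median total reads were 379180 against 262904.5, the summed level of the dissociation genes had a median of 438.4 against 305.1 reads per 10000, and 10 of 40 of these genes were higher. The part of either difference was not tested.

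Valve genes were present in some of the selected cells. Of 12 tested in the valve list, *Gja4*, *Cldn11* (0.45) and *Gata2* were higher and none was lower (median log2 ratio 0.14), while *Foxc2*, a transcription factor of valve formation, was at 0.07, *Itga9*, an integrin of valve leaflets, at 0.01 and *Gja1*, the connexin 43 gene, at -0.29. Against the *Igfbp5*-low *Lyve1*-low cells none of the 12 was higher and 1 was lower (median -0.07). *Cldn11* was above 1 in 37 of the selected cells (26.8%, 19.6 to 35.01), against 16.2% (13.5 to 19.1) of all others, 10.5% of the *Igfbp5*-high *Lyve1*-positive, 28.96% of the *Igfbp5*-low *Lyve1*-low and 7.53% of the *Stab2*-high cells. The share in the *Igfbp5*-low *Lyve1*-low cells (28.96%, 22.5 to 36.1) was no lower than that in the selected cells. These intervals cover counting error only and compare no mice. *Gja4* was above 1 in 51 of the selected cells, with *Cldn11* in 17 and without it in 34, so the selected cells held cells with both genes, with either and with neither. Without all cells with *Cldn11* above 1, 4.17% of genes were higher and 6.25% lower in the remaining selected cells, and 91.04% of the genes first called higher and 93.4% of those called lower were still called.

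Within the selected cells, the 37 with *Cldn11* above 1 had more *Nts* (35.1 against 13.5 reads per 10000, log2 ratio 1.32) and more *Cd24a*, a surface glycoprotein gene (12.3 against 4.86, 1.19). They had less *Acvrl1*, which encodes the BMP receptor ALK1 (1.47 against 3.13, -0.74), and less *Bmp4*, which encodes a BMP ligand (0.364 against 1.31, -0.76). These 4 genes were picked after their values were seen. *Serpine2*, a serine protease inhibitor gene, was found in all 37 and in 98.02% of the rest, at 4.48 against 7.497 (-0.63).

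The selected cells were not uniform. The 10 genes with the largest SD of the ln value among them were *Nts* (mean 1.82 ± 1.54), *Apoe* (1.51 ± 1.45), *Adamts1* (1.78 ± 1.34), *Ackr3* (1.52 ± 1.28), *Gdf15* (0.759 ± 1.24), *Rgs16*, a regulator of G protein signalling (1.94 ± 1.24), *Plat* (1.17 ± 1.22), *Nupr1* (1.37 ± 1.20), *Rnd1*, a small GTPase gene (1.43 ± 1.19), and the interferon-inducible *Ifi27l2a* (1.75 ± 1.19), all over the selected cells. The same 10 genes came first after thinning to 20000 reads. *Nts* ranged up to 5.77 with a lower quartile of 0.19, and *Gdf15* reached 4.38 although its median was 0.03, so a minority of cells held most of its reads. All 10 also had an SD above 0.96 among the other cells.

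Pairs were drawn from the 10 most variable genes together with *Foxp2*, *Clca3a1*, *Parm1*, *Ptn*, *Cldn11*, *Gja4* and *Igfbp5*. They were weakly related across the selected cells, which share their sort, dissociation and library preparation. The largest Pearson's r was 0.37, between *Ackr3* and *Ptn*, followed by -0.35 between *Nupr1* and *Clca3a1* and 0.35 between *Ackr3* and *Plat*. *Apoe* rose with *Clca3a1* (r = 0.31) and *Ackr3* fell with *Foxp2* (r = -0.32). With the log10 of total reads, *Nupr1* and *Ifi27l2a* each had r = -0.27. *Igfbp5* itself had r = 0.27 with *Ptn* and 0.08 with *Foxp2* over the range left by the selection.

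**Figure D5:**
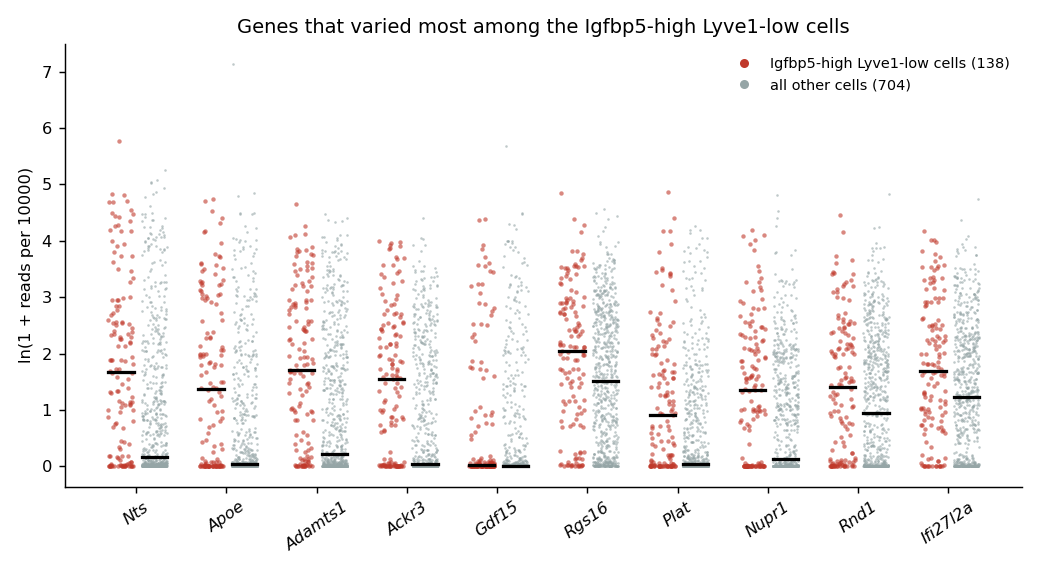
Levels of the 10 genes with the largest SD among the *Igfbp5*-high *Lyve1*-low cells, as ln(1 + reads per 10000), with 1 point per cell for these cells (red) and all other cells (grey), and medians as black bars. Each gene has selected cells at 0 and a highest selected cell between 3.99 (*Ackr3*) and 5.77 (*Nts*), and *Gdf15* has a median of 0.03 in the selected cells.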

How the data were processed

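Sorted CD31+ PDPN+ nasopharyngeal LECs of adult mice were sequenced by Smart-seq3. The authors aligned the reads to mm10 with STAR 2.7.9a, counted them per gene with featureCounts 2.0.1, dropped cells in which fewer than 2000 genes were found or mitochondrial reads exceeded 10%, and deposited 1 normalized matrix of 23168 genes and 842 adult cells, with 1536 wells listed. Of the 842 cells, 138 were *Igfbp5*-high *Lyve1*-low, 76 *Igfbp5*-high *Lyve1*-positive, 183 *Igfbp5*-low *Lyve1*-low, 146 *Stab2*-high and 299 none of these, so that 704 cells were not selected. Each deposited value is ln(1 + reads per 10000), a natural log although the methods name log2, since only the natural log gave sums of 10000 per cell, and 100% of them gave whole reads within 0.01. The per-cell scaling removes differences in total RNA, so a lower level can also follow from more RNA of other genes.

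Cells and gene lists were chosen with earlier results of these data known. Mitochondrial and ribosomal protein genes (302) and the 3 rule genes were left out of the comparisons. Genes named were the 6 markers, the 15 highest and 15 lowest ratios, the 5 highest and 5 lowest of each other comparison, up to 4 genes of each of 32 lists with genes that define a list, and the 10 most variable genes. Exceptions are stated, and 2 genes that this rule names are not reported here. Coordinates come from GENCODE M21 on GRCm38. The 95% intervals of shares (Clopper–Pearson, exact) cover counting error only. Alternatives changed the pseudocount, the measure, depth, the limits of the rule, the filter and the cells included. The step was tested on simulated data. No source states that molecular identifiers were counted, so reads are not independent molecules. Strand is not given in the sources used here, so overlapping genes cannot be told apart. Python 3.11.15, NumPy 2.4.6, pandas 2.3.3, SciPy 1.17.1 and Matplotlib 3.10.9 were used.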

Additional observations from a re-analysis of the deposited data

How the results depend on the processing

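All ratios compare cells of 1 pooled sample, so no replicate error stands behind them. No paired analysis was possible because no mouse or plate is known for any cell. With 22 selected cells (both *Lyve1* and *Stab2* at 0, or only cells with *Xist* and no Y gene), single cells weigh heavily.

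Against all other cells, 3.50% of genes were higher and 4.49% lower. These shares became 11.8% and 20.4% with a pseudocount of 0.1, 10.3% and 13.3% with *Lyve1* and *Stab2* at 0, 9.83% and 13.7% in cells with *Xist* and no Y gene, 5.97% and 8.12% in cells at or below the median of total reads, and 7.88% and 2.89% with group medians. Thinning to 20000 reads gave 5.29% higher, and the difference of mean ln values gave 2.49% lower. Thinning left 3650 tested genes in place of 5750, so the share rose although fewer genes were called higher. A filter at 10% of cells (2.17% and 2.77%) and no filter (1.01% and 1.29%) added tested genes. A lower filter leaves the ratios as they are, so it could not lose a call. With the pseudocount of 0.1, 17.5% were higher and 22.4% lower against the *Igfbp5*-high *Lyve1*-positive cells, 14.1% and 17.7% against the *Igfbp5*-low *Lyve1*-low cells, and 19.8% and 30.6% against the *Stab2*-high cells. Under the difference of mean ln values the lower shares in these 3 comparisons were 2.92%, 0.690% and 6.08%. Thinning gave 6.88% and 8.97% in the first of them and 5.04% and 4.28% in the second, over 3736 and 3571 tested genes. In both, fewer genes were called lower than without thinning and more were called higher. Among list medians, the pseudocount of 0.1 moved capillary markers to -1.86 and blood endothelial markers to -1.29, and group medians moved capillary markers to -0.047. *Cldn11* was found at any read in 52.9% of the selected cells, against 26.8% above 1.

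With *Igfbp5* above 3 (79 selected cells), 3.90% of genes were higher and 5.01% lower, and with *Igfbp5* above 1, 3.52% and 4.51%. Over the named genes and 15 alternatives, 94.1% of log2 ratios moved by less than a factor of 1.5. Among ratios of at least 0.3 in size, the sign turned in 5 cases: *Tppp3* (0.093, difference of mean ln values), *Rnd1* (-0.062, cells above the median of total reads), *Efnb2* (-0.10, *Lyve1* and *Stab2* at 0), and *Itgb4* (-0.048) and *Ifi27l2a* (-0.19) in cells with *Xist* and no Y gene. The sign also turned for 8 named genes with a ratio under that limit. Ratios fell under the limit for 11 named genes in cells with *Xist* and no Y gene, among them *Ackr3* (0.016), *Tek* (0.15), *Thbd* (0.17), *Gdf15* (0.18) and *Sdc1* (0.18), for 10 with *Lyve1* and *Stab2* at 0, among them *Foxp2* (0.12), *Gata2* (0.084) and *Ednrb* (0.22), for 6 in cells at or below the median of total reads, among them *Apoe* (0.23), *Gja4* (0.29) and *Gata2* (0.11), and for 8 with *Igfbp5* above 3, among them *Apoe* (0.27) and *Gata2* (0.20). Group medians took 31 named genes under it, among them *Ptn* (0.060), *Postn* (0.097), *Gm525* (-0.093), *Htr2b* (0.039) and *Cldn11* (0.021). The cause was not tested. Of the 6 markers, *Apoe* passed the limit in 13 and *Foxp2* in 14 of 15 alternatives, and the other 4 in all 15. Leaving out cells by dissociation genes and leaving out the highest cell of each group were chosen after seeing the data.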
